A study of Mus musculus with 6 samples.

Results

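The miR-221 and miR-222 cluster was examined in the livers of mice with CCl4-induced fibrosis. Every mouse probe set whose name is miR-221 or miR-222, of either arm, was taken, which gave 4 of the 1247 miRNAs on the array: mmu-miR-221-3p, mmu-miR-221-5p, mmu-miR-222-3p and mmu-miR-222-5p, written below without the species prefix. Total liver RNA was labeled with Cy3 and hybridized to 1 miRNA array for each of 6 male C57BL/6 mice. The 3 treated mice were given carbon-tetrachloride (CCl4), a solvent toxic to the liver, at 0.6 mL/kg in corn oil by intraperitoneal injection, and the 3 control mice received the same volume of corn oil. Mice were 7 weeks old at the start and were injected 2 times a week for 10 weeks. The RNA came from whole liver, so fewer cells of a type and less RNA per cell cannot be told apart in any value given here.

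miR-221 and miR-222 are encoded side by side on the X chromosome and are processed from a common primary transcript. Both 3p strands carry the same seed, the stretch near the 5′ end that pairs with target mRNAs, and they are known to repress Cdkn1b, the cell cycle inhibitor p27, and Kit, a receptor tyrosine kinase. In liver research they are known from hepatocellular carcinoma and from activated hepatic stellate cells, the cells that deposit collagen in fibrosis, and they are also described in endothelial cells.

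The mature sequences are shown because the shared seed defines the pair and the rest of each sequence sets its members apart. They come from RefSeq, assembly GRCm38.p6, where 3 of the 4 members were found, and the seed, bases 2 to 8, is in capitals.
miR-221-3p: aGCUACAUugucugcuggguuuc
miR-222-3p: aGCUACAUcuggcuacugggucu
miR-1928: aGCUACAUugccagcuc
miR-221-5p: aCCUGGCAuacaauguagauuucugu
miR-221-3p and miR-222-3p were identical over the first 8 bases and at 11 of 23 positions when aligned from the 5′ end without gaps. Of 1679 mature mouse miRNAs in the table, 3 carried this seed, and the third, miR-1928, shared the first 10 bases of miR-221-3p. The Mir221 hairpin lies at chrX:19146294-19146388 and the Mir222 hairpin at chrX:19146893-19146971, both on the minus strand of GRCm38.p6 with 504 bases between them. No other gene of the RefSeq table overlapped either hairpin. The nearest annotated genes were the lncRNA Gm14636 and the pseudogene Gm5383. In the Mir221 hairpin, given to show how the arms are placed, both mature strands are in capitals.
Mir221: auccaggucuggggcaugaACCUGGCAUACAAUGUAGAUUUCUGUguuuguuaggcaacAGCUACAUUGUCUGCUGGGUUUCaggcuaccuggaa

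The array software adds up the spots of a miRNA into its total signal, a background-subtracted intensity with no log taken, and flags the miRNA as detected or not. Between 186 and 193 miRNAs were detected in the control livers and between 227 and 334 in the treated livers, with no saturated spot among the mouse probes. The third CCl4 array stood apart, with 334 detected miRNAs and rank correlations of 0.860 and 0.856 with the other CCl4 arrays over the 166 miRNAs detected on all 6 arrays. On this array the total signal was also built differently. Over probes with a mean spot signal above 20, the median ratio of the total probe signal to the mean spot signal was 0.283 on the other 5 arrays and 0.385 on the third CCl4 array, 1.36 times as high. This ratio raises all totals of that array alike, so it cancels in values scaled per array but not in signals compared without normalization. All arrays were on 1 slide, with the CCl4 arrays in row 1 and the corn oil arrays in row 2, so slide position and treatment cannot be told apart. Each value is limited in precision by the 3 arrays in each group.

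miR-221-3p was detected in all 6 livers, and before normalization its signal was higher in every CCl4-treated liver than in any control liver. Its total signals were 17.3, 15.1 and 17.0 in the control livers and 39.7, 31.6 and 49.3 in the treated livers. The corn oil values lay close together, and the lowest CCl4 value was above the highest of them. The group means were 16.5 ± 1.17 (SD, n = 3) and 40.2 ± 8.87 (SD, n = 3), and the log2 difference of 1.26 equals a 2.40-fold higher signal. At the level of spots, 32, 26 and 32 of its 40 spots (80.0%, 65.0% and 80.0%) were well above background in the control livers, against all 40 in every treated liver. Both probes of the miRNA showed the same difference, 1.27 on the log2 scale for A_54_P2640 and 1.26 for A_54_P3830. In mean spot signals, which lack the array-wide ratio described above, the CCl4 arrays gave 70.5, 55.4 and 63.8 and the corn oil arrays 29.4, 26.4 and 30.8. The third CCl4 array was then no longer the highest of its group.

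**Figure D1:**
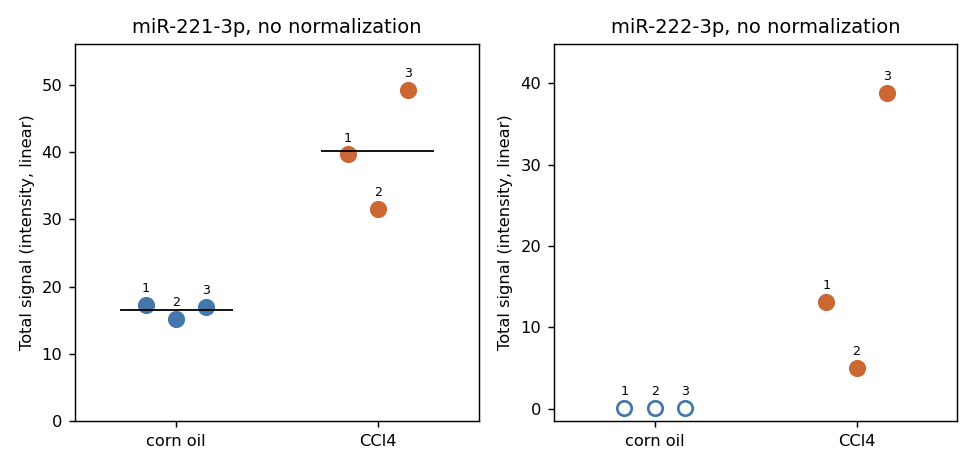
Total signal (intensity, linear scale, no normalization) of miR-221-3p and miR-222-3p in each liver, with replicate numbers above the points and group means of miR-221-3p as lines. Open points are arrays on which the miRNA was not detected, where the software writes 0.1. miR-221-3p ran from 15.1 to 17.3 in the corn oil group and from 31.6 to 49.3 in the CCl4 group, and miR-222-3p was detected in the CCl4 group alone, at 5.03 to 38.8.

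Before normalization the signals of most miRNAs were higher on the CCl4 arrays, and that of miR-221-3p lay among them. The CCl4 and corn oil values did not overlap, with the CCl4 values higher, for 105 of the 166 miRNAs detected on all arrays, which is 63.3%. The median log2 difference of these 166 miRNAs was 0.99, and 51 of them had a larger difference than miR-221-3p. In the limma fit without normalization miR-221-3p passed the call rule, which asks for more than a 2-fold change and a Benjamini-Hochberg adjusted p below 0.05 (adjusted p = 0.044), as did 10.8% of all miRNAs tested. The exact permutation test on the 6 values gave p = 0.1, the smallest two-sided p that 3 livers against 3 allow.

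After quantile normalization the groups were not distinguishable in miR-221-3p. The normalized log2 signals were 4.69, 4.57 and 4.69 in the control livers and 4.99, 4.93 and 4.14 in the treated livers. The first and second CCl4 livers lay above all control livers and the third lay below all of them, so the groups overlapped. The log2 fold change was 0.037 (standard error 0.26, 95% interval -0.62 to 0.69, limma adjusted p = 0.94), smaller than the SD of 0.47 in the CCl4 group. In this fit 20 of the 166 miRNAs were called (12.0%), 12 of them higher in the CCl4 group (7.23%), and miR-221-3p was not among them. Of all 166, 67 had a larger change than miR-221-3p, with a median change of -0.14 over all.

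The same order of the livers appeared when each array was scaled to the 75th percentile of the 166 miRNAs. miR-221-3p was at 10.6%, 9.95% and 10.5% of that percentile in the control livers and at 14.3%, 14.3% and 6.82% in the treated livers. The percentile itself was a total signal of 152 to 163 for the control livers and of 278, 221.2 and 723 for the treated livers. The scaled log2 change was 0.11 (standard error 0.33, limma adjusted p = 0.89).

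**Figure D2:**
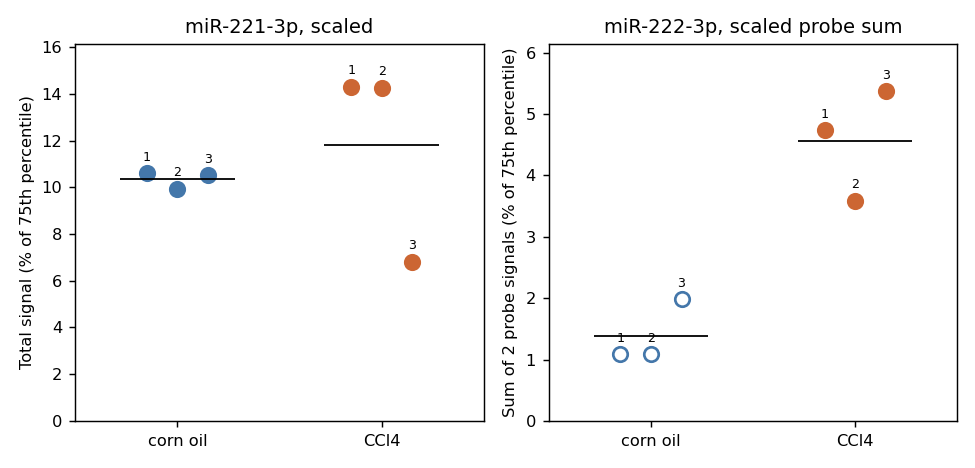
Signals of miR-221-3p (total signal) and miR-222-3p (sum of both probe signals) in each liver as a percent of the 75th percentile of the 166 miRNAs detected on all arrays, with replicate numbers and group means as lines. Open points are arrays on which the miRNA was not detected. For miR-221-3p the third CCl4 liver was the lowest of all at 6.82%, while for miR-222-3p it was the highest at 5.37%.

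The result for miR-221-3p turned on the third CCl4 liver. Without it, the quantile-normalized change was 0.30 (standard error 0.05, limma adjusted p = 0.011) and the change scaled to the 75th percentile was 0.47 (limma adjusted p = 0.011). Both are under 2-fold, so miR-221-3p was not called, while 16.9% of the miRNAs were with quantile normalization and 15.7% with the 75th percentile. An adjusted p under 0.05 was common without that liver, in 52.4% of the miRNAs with quantile normalization and in 60.8% with the 75th percentile. When limma estimated a weight for each array, the third CCl4 array received 0.0359 and the others between 0.859 and 3.202, and the change was 0.30 (limma adjusted p = 0.035), with 53.6% of all miRNAs under that threshold. Leaving out the first or the second CCl4 liver gave changes of -0.11 and -0.086.

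**Figure D3:**
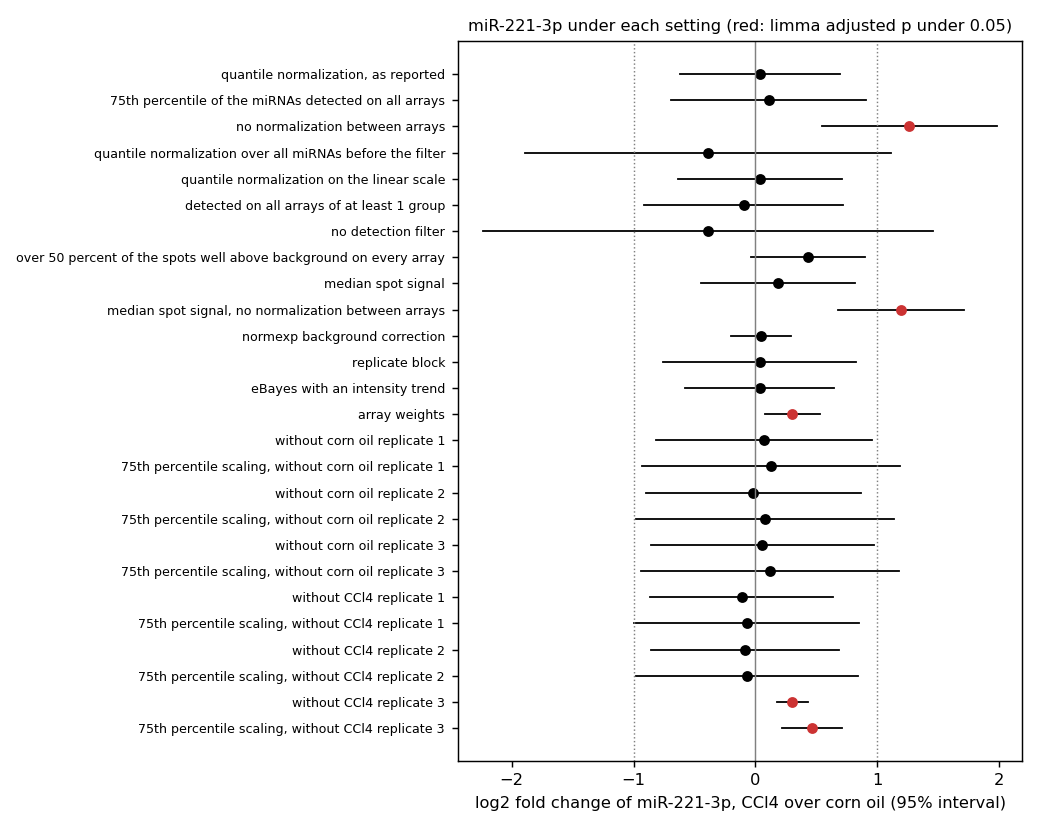
Log2 fold change of miR-221-3p, CCl4 over corn oil, with its 95% limma interval (lines) under each processing setting. Red points have an adjusted p under 0.05 and dotted lines mark a 2-fold change. The estimates run from -0.39 to 1.26, and those past 2-fold are the settings without normalization between arrays.

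miR-222-3p was detected on all 3 CCl4 arrays and on none of the corn oil arrays. In the treated livers its total signals were 13.1, 5.03 and 38.8, while the software wrote 0.1, its value for an undetected miRNA, for each control liver. The total of the second CCl4 liver holds probe A_54_P2644 alone, and that of the third carries the 1.36 times higher ratio of total to spot signal. Detection on all CCl4 arrays and no corn oil array was found for 22 of the 1247 miRNAs, 1.76%, and the reverse for 0.0802%. Before normalization the third CCl4 array was the highest of its group for 12 of these 22, miR-222-3p among them, and for 139 of the 166 miRNAs detected on all arrays (83.7%).

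The signal of miR-222-3p was close to background in part of the CCl4 livers. Of its 40 spots, 23 were well above background in the first CCl4 liver, 2 in the second and 40 in the third, and 0 on any corn oil array. The lowest total of a miRNA with over 50% of its spots well above background was 10.4 to 11.3 in the control livers. Scaled to the 75th percentile, the CCl4 mean of miR-222-3p lay below that floor, so no fold change is given. With undetected signals set to the lowest detected signal of each array, the limma fit over 215 miRNAs did not call miR-222-3p (adjusted p = 0.19). All its corn oil values in that fit come from this floor, so the p cannot decide whether miR-222-3p changed, and no conclusion is drawn from it.

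The spot signals of both miR-222-3p probes, given as a description, were higher in every CCl4 liver than in any control liver. As miR-222-3p was detected on the CCl4 arrays alone, this is no separate result. The signals are not normalized, and 63.3% of the tested miRNAs had higher total signals without overlap before scaling. Spots of probe A_54_P2644 had a mean signal of 4.85 ± 3.52 (SD over 20 spots), 3.74 ± 3.59 and 7.02 ± 3.85 in the control livers and of 29.4 ± 5.21, 18.0 ± 3.28 and 61.6 ± 5.99 in the treated livers. Probe A_54_P2643 gave 1.41 ± 3.74, 2.10 ± 3.22 and 4.05 ± 3.56, against 17.4 ± 4.21, 10.7 ± 3.11 and 38.5 ± 4.40. The order of the livers was the same for both probes in the CCl4 group, with the third highest and the second lowest.

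**Figure D4:**
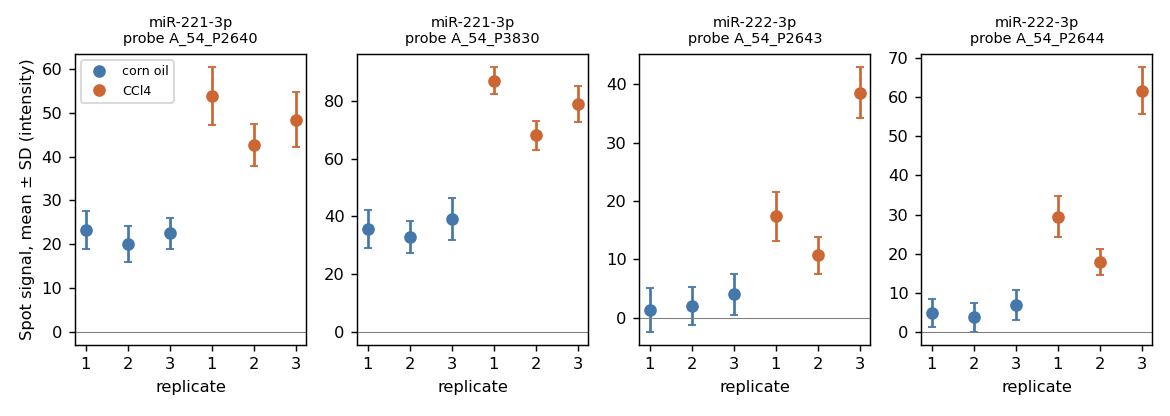
Mean background-subtracted spot signal (intensity, linear scale) of each 3p probe in each liver, with error bars for the SD over its 20 spots and blue for corn oil and orange for CCl4. For both miR-221-3p probes the first CCl4 liver is the highest, and for both miR-222-3p probes the third is, at 38.5 and 61.6.

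The sums of the probe signals of miR-222-3p were 1.77, 1.65 and 3.21 in the control livers and 13.1, 7.92 and 38.8 in the treated livers. Scaled to the 75th percentile they were 1.08%, 1.08% and 1.98% against 4.74%, 3.58% and 5.37%, and the groups did not overlap on either scale. Of the 166 tested miRNAs, 63.3% had higher total signals in the CCl4 group without overlap before scaling, and 16.3% on the 75th percentile scale. These 166 do not include miR-222-3p. It was detected on the CCl4 arrays alone, so the lack of overlap in its probe sums is no separate result. The corn oil values come from probes with no spot well above background, so the probe sums are a description. On log2 values the exact permutation test gave p = 0.1 on both scales, the smallest two-sided p that 3 livers against 3 allow. No conclusion is drawn from it.

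The proportion of both members within a liver is given as a description, since no miR-222-3p spot was well above background in the control livers. The log2 ratio of the probe sum of miR-222-3p over that of miR-221-3p, taken within an array and so free of any scaling, was -3.29, -3.199 and -2.41 in the corn oil group. It was -1.59, -1.99 and -0.35 in the CCl4 group. The third liver of each group had the highest ratio of its group. The corn oil ratios rest on undetected miR-222-3p signal, so the size of a change in proportion cannot be read from them. The exact permutation test of the ratios gave p = 0.1, the smallest two-sided p that 3 livers against 3 allow, and no conclusion is drawn from it.

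Other miRNA pairs made from common transcripts are given as a description of how far partners differed on this array. Whether a partner is also made from another gene was not checked. The differences cover only pairs with both partners detected in all livers, which miR-221-3p and miR-222-3p were not. Of 15 such pairs, 9 had both partners detected in all livers, and the log2 changes of partners, scaled to the 75th percentile, differed by 0.038 to 0.60 with a median of 0.28. miR-192-5p and miR-194-5p differed by 0.038 and miR-99b-5p and miR-125a-5p by 0.60. In 4 pairs 1 partner was detected on all corn oil arrays and the other on none, as for miR-221-3p and miR-222-3p. Of these, only miR-132-3p, the partner of miR-212-3p, was then detected on all CCl4 arrays, at 0 of 3 and 3 of 3.

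The 5p strands were not detected in any liver. miR-221-5p had 2 probes and miR-222-5p had 3, with 40 spots each, and 0 of these spots were well above background on any array. Their probe signals ran from -0.49 to 0.62, below the lowest detected total of every array. Strand choice by the miRNA machinery usually favors 1 arm, and in this cluster the arm with measurable signal was the 3p arm for both miRNAs. miR-1928, which shares the seed but not the 3′ part of the sequence, was written as 0.1 on every array and was detected on none.

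Markers of other cell types were read beside the cluster, and their part in the signals of miR-221-3p and miR-222-3p was not tested. Sums of the total signals of each marker list are given as multiples of the 75th percentile of the array, since 63.3% of the tested miRNAs were already higher without overlap before any scaling. Such a sum mostly follows the most abundant members of its list. In the hepatocyte list the quantile-normalized log2 means of the control livers ran from 6.84 to 13.9. The 5 hepatocyte markers, detected in all livers, summed to 125 to 129 in the control livers and to 54.0, 80.3 and 4.22 in the treated livers. Their sum was lower in every treated liver, by far the lowest in the third. Of the mesenchymal markers, 4 to 5 of 6 were detected on corn oil arrays and 5 to 6 on CCl4 arrays, with sums of 0.441 to 0.674 and of 2.32, 1.15 and 1.71, and miR-145a-5p was detected on no corn oil array. Of the leukocyte markers, 4 to 5 of 7 were detected on corn oil arrays and 6 to 7 on CCl4 arrays, with sums of 0.666 to 0.737 and of 2.08, 1.94 and 0.960, and miR-150-5p and miR-155-5p were detected on no corn oil array. These sums were higher in every treated liver, with the first the highest for both lists. The endothelial markers miR-126-3p and miR-126-5p, detected on every array, summed to 3.70 to 4.19 in the control livers and to 2.97, 3.71 and 5.16 in the treated livers, and the groups overlapped. The red cell markers miR-144-3p and miR-451a summed to 2.85 to 4.95 and to 2.63, 1.42 and 2.95, with overlap as well, and miR-486-5p was not on the array. In the quantile-normalized limma fit, where 12.0% of all 166 miRNAs were called and 7.23% were called higher, 2 of the 4 mesenchymal markers tested were called higher. None of the 5 hepatocyte, 2 endothelial, 4 leukocyte and 2 red cell markers was called. The leukocyte marker miR-342-3p, at 0.85 (limma adjusted p = 0.014), missed the call on the 2-fold limit alone. The other leukocyte markers tested had limma adjusted p of 0.18 and above. The median log2 changes were 1.31 for the mesenchymal, 0.69 for the leukocyte, 0.13 for the endothelial, -0.55 for the red cell and -1.49 for the hepatocyte list, against -0.14 for all 166. Some marker calls depended on the scaling. In the fit scaled to the 75th percentile, which called 16 of the 166 miRNAs, miR-342-3p was called higher (1.11, limma adjusted p = 0.016). So was the mesenchymal marker miR-199a-3p (1.51, limma adjusted p = 0.034), which was at 1.28 (limma adjusted p = 0.059) with quantile normalization. The paper lists miR-342-3p as upregulated on its arrays and by qRT-PCR.

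Among 30 miRNAs linked to liver fibrosis or stellate cell activation, all on the array, 23 were detected in every liver. In the quantile-normalized fit, which called 12.0% of all miRNAs tested, 3 of these were called higher, miR-199a-5p, miR-199b-5p and miR-34a-5p, and 1 lower, miR-378a-3p, and 19 were not called. Their median log2 change was -0.064, against -0.14 for all 166 miRNAs, and miR-221-3p, at 0.037, lay between the ends of the list. The highest was miR-199b-5p, a miRNA of mesenchymal cells, at 2.28 (limma adjusted p = 0.016), with 45.0% to 52.5% of its spots well above background in the control livers. The lowest was miR-192-5p, abundant in hepatocytes, at -1.98 (limma adjusted p = 0.33). Of the list, 6 were detected on no corn oil array, as was miR-222-3p and as were 83.4% of the 1247 miRNAs, and none of the 30 was undetected on every CCl4 array.

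The miRNAs whose profile over the 6 livers was most like that of miR-221-3p were miR-20a-5p, miR-20b-5p, miR-5622-3p, miR-19a-3p and miR-296-5p. Likeness was the root-mean-square difference of the 6 log2 signals after scaling to the 75th percentile and centering on each miRNA's mean. It was 0.13, 0.14, 0.14, 0.17 and 0.17 for these 5, against a median of 0.59 over the 165 other miRNAs detected on all arrays. All 5 shared a low value in the third CCl4 liver, as the plot of profiles shows, which follows from how they were chosen. None was called in the quantile-normalized fit, which called 12.0% of all miRNAs tested. The points of a profile come from the same 6 arrays, and the ranking is a description.

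**Figure D5:**
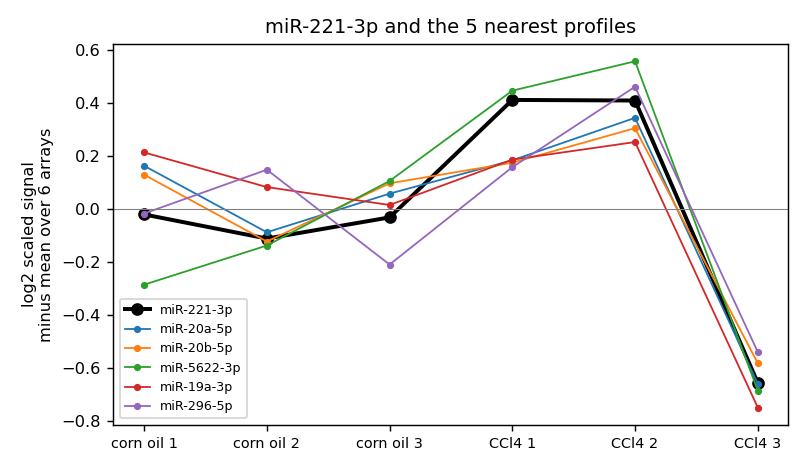
Log2 signal scaled to the 75th percentile, minus the mean over the 6 arrays, of miR-221-3p (black) and the 5 miRNAs with the smallest root-mean-square difference from it. Lines join the points of a miRNA and carry no order of replicates. All 6 profiles are lowest in the third CCl4 liver.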

How the data were processed

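Male C57BL/6 mouse liver RNA, 3 arrays per group, was read from scanner output that the authors deposited. Its intensities were extracted with Agilent Feature Extraction 11.0.1.1, per the labels, with the background already removed and no normalization between arrays. The authors also deposited a normalized intensity table of 111 miRNAs, which holds 0 of the 4 members and was used for the count of calls only. Only mouse probes were kept, and the labels gave each array its group and replicate number.

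Following the methods of the paper, miRNAs flagged as detected on every array (166) entered the test. The authors' table holds 111 miRNAs and lacks miR-221-3p, so this filter did not reproduce theirs. The total signals of the 166 miRNAs were log2-transformed and quantile normalized. Then limma 3.58.1 (R 4.3.3) compared treated with control livers without covariates. A call needed a Benjamini-Hochberg adjusted p under 0.05 over all miRNAs tested and a fold change over 2. The fit was tested on simulated data. Single values were compared with two-sided exact permutation tests in scipy 1.17.1. miR-222-3p was outside this fit, and its bound was taken on the 75th percentile scale, with over 50% of spots well above background as the limit. The text names the cluster, miRNAs of the same seed, the 5 nearest profiles, and called and extreme members of the lists. miR-192-5p, miR-194-5p, miR-99b-5p, miR-125a-5p, miR-132-3p and miR-212-3p among the pairs were named after their values were seen. The markers miR-342-3p and miR-199a-3p were also named after their values were seen. The members and lists were chosen with earlier results of these data known. Alternatives covered normalization, detection filter, signal per miRNA, normexp with an offset of 50, the replicate number as a block, moderation, array weights and each array left out. No source states that the livers were processed separately, so p-values measure the spread between these samples. Predicted targets, histology and qRT-PCR were not analysed here.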

Additional observations from a re-analysis of the deposited data

Results flagged for a closer look

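miR-222-3p gave a signal in data that the comparison over the 166 miRNAs does not use. It was detected on 3 of 3 CCl4 arrays, with total signals of 13.1, 5.03 and 38.8 (mean 19.0). On the corn oil arrays it was detected on 0 of 3, and the software wrote 0.1. The second CCl4 array had 2 of 40 spots well above background, and the third carries the higher ratio of total to spot signal. The same pattern of detection was found for 22 of the 1247 miRNAs, 1.76%.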

How the results depend on the processing

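The change of miR-221-3p was positive in 17 of 25 alternatives and its adjusted p was under 0.05 in 5, with a range of 0.011 to 0.99. It was called only without normalization between arrays, at 1.26 from total signals and at 1.20 from median spot signals. It turned negative when all miRNAs were quantile normalized ahead of the filter (-0.39), when detection in every liver of either group was enough (-0.095), and without a detection filter (-0.39). Both values of -0.39 come from the same normalized signals. With over 50% of spots well above background on every array as the filter, the change was 0.44 (limma adjusted p = 0.21). With each array left out it lay between -0.11 and 0.30, and between -0.069 and 0.47 with scaling to the 75th percentile (-0.069 without CCl4 replicate 1, -0.068 without CCl4 replicate 2). The replicate block left it at 0.037 (adjusted p = 0.94). The count of 20 calls became 32 with the either-group filter, 6 without a detection filter, 7 with over 50% of spots well above background on every array, 4 with normexp, 12 in the authors' deposited values, 6 with the replicate block and 31 with array weights. With each array left out it ran from 5 to 28, and from 4 to 26 with the 75th percentile (8 without CCl4 replicate 1). Deviations of same-numbered livers from their group means had correlations of -0.18, 0.11 and 0.03. No pairing by number was seen, though 3 arrays per group cannot exclude one. miR-222-3p was not called with undetected signals at a floor (adjusted p = 0.19) or without a detection filter (adjusted p = 0.31). Its corn oil values in both fits come from the floor, so neither p decides whether it changed. The detected CCl4 arrays exceeded the corn oil arrays by 3, and by 2 with over 50% of spots well above background as the rule. With 1 array left out the excess was 2 to 3, which the counts fix in advance. Settings with both the 75th percentile and an array left out, the unnormalized spot signals, the probe sums and the spot rule were chosen after seeing the data. The planned test of the change of miR-222-3p minus that of miR-221-3p, on total signals, was not run, as miR-222-3p was not detected on the corn oil arrays. The permutation test on the ratio of their probe sums was run, and no conclusion is drawn from it. Scaling to the 75th percentile of all miRNAs was not run, since that percentile was 0.1, the undetected value, on 5 of 6 arrays. The cause of these differences between settings was not tested.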
